A study of Homo sapiens with 6 samples.

Results

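PCNA, POLH and DDB2 are DNA repair genes that p53 is known to induce, and they are described here in A549 cells after the topoisomerase II poison mitoxantrone. They were picked by gene symbol from the deposited table of changed genes, because they stood higher with the drug while most genes annotated "DNA repair" stood lower. They make up 3 of the 4546 genes in that table, and 3 of the 92 that carry the repair annotation. Since their direction chose them, their differences between the groups are given below as descriptions, and calls made for them by the fit across all listed genes support nothing.

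The tested cells were A549 treated with 50 nM mitoxantrone for 48 hours (3 RNA-seq libraries), and their controls were A549 given DMSO, the solvent, at a dilution of 1 in 1000 for the same 48 hours (3 libraries). A549 is an established human lung adenocarcinoma line that carries wild-type p53, and all 6 libraries come from this one line. The library totals on which the FPKM rest, as computed from counts, lengths and FPKM, were 16681380 to 19352443 with mitoxantrone and 20380674 to 21781220 with DMSO. These totals need not equal the sequencing depth. The counts of the listed genes made up 16.9% to 17.3% of them. Of 8 epithelial and A549 genes 5 were listed, with KRT8 at 1381 FPKM with mitoxantrone and 676 with DMSO, whereas PTPRC, CD3E and MS4A1, among the leukocyte markers, were not listed. The listed CD8A, CD14 and ITGAX summed to 3.85 to 4.14 FPKM with mitoxantrone and 0.870 to 1.04 with DMSO, and the 1 listed of 6 fibroblast markers, COL1A1, had 1.21 to 1.53 FPKM with mitoxantrone and 3.09 to 3.51 with DMSO; their part in the results was not tested. A gene absent from the table did not pass the submitters' threshold or was not kept for another reason, and it is called not listed, which does not mean unchanged. In bulk RNA, fewer cells carrying a transcript and less of it per cell cannot be told apart.

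PCNA encodes the ring-shaped sliding clamp that holds DNA polymerases on their template and serves as a docking platform for repair, replication and chromatin factors. POLH encodes DNA polymerase eta, the translesion polymerase that copies past ultraviolet-induced pyrimidine dimers and is brought to stalled forks by ubiquitinated PCNA; its loss causes the variant form of xeroderma pigmentosum. DDB2 encodes the lesion-recognition subunit of the UV-DDB complex, which finds photolesions in chromatin for nucleotide excision repair and belongs to a CUL4 ubiquitin ligase. All of them are textbook p53 targets, and p53 binds DNA as a tetramer through a pair of decamer half-sites with a short spacer or none.

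To show what the starts of these genes hold of that element, the RefSeq promoter windows (GRCh38.p14, 250 bases before to 50 after each start) were searched for the p53 consensus, 2 half-sites with 0 or 1 base between them. The consensus is its own reverse complement, so 1 pass covers both strands. The best match in the windows of each gene is printed below on the gene's strand, with the compared bases in capitals and the flanks and any spacer in lower case.
DDB2, chr11:47214975-47215003, plus strand: gtttGAACAAGCCCtGGGCATGTTTggcg
PCNA, chr20:5120171-5120198, minus strand: ctccACATATGCCCGGACTTGTTCtgcg
POLH, chr6:43576084-43576111, plus strand: ccgtGTGCAGGTTGAGCCTAGGTGggcg

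The DDB2 stretch matched the consensus in 20 of 20 positions. It runs from base 6 to base 26 after the downstream of the 2 DDB2 starts and lies in an exon, within the 5′ UTR, by GENCODE 29. A match this good occurred in 7 of 35116 windows (0.0199%). The PCNA stretch matched in 18 of 20 positions, 236 to 217 bases before the downstream of the 2 PCNA starts, and lies in an intron of the longer PCNA transcript. Matches at least this good occurred in 1.34% of windows. The best POLH stretch matched in 14 of 20 positions, a level that 99.4% of windows reach, so this window holds no close match. The other PCNA window and the other DDB2 window had 15 of 20 at best, as 85.6% of windows do. These matches are descriptions of sequence, and a window without one says nothing about sites elsewhere in the gene. The GRCh38.p14 positions printed here do not share a coordinate scale with the deposited gene positions given below. On the deposited scale, the PCNA and DDB2 starts would fall outside their own genes.

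PCNA was the most abundant of the 3 in every library and 2.19-fold higher with mitoxantrone, DDB2 stood between, and POLH, the scarcest, differed most. Values are normalized counts (reads divided by the library size factor, a scale for comparing libraries) unless FPKM, a level per gene length, is named. Log2 fold changes are mitoxantrone over DMSO from edgeR's fit to all 4546 listed genes, with their standard error (SE).

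PCNA (ENSG00000132646; chromosome 20, 5095599 to 5107272, minus strand, in the deposited table, which names no genome build) had 6592, 6483 and 6436 normalized counts in mitoxantrone 1 to 3, against 2770, 2943 and 3207 in DMSO 1 to 3. Every mitoxantrone library was above every DMSO library, as for 57.5% of all listed genes. The mitoxantrone libraries lay close together, with a coefficient of variation of 1.23% against 7.40% among the DMSO libraries. Over the listed genes that averaged 50 or more in each group, the median was 7.15% with mitoxantrone and 6.15% with DMSO. The means were 6504 ± 79.8 with mitoxantrone and 2974 ± 219.9 with DMSO (SD, n = 3 each), a log2 fold change of 1.13 ± 0.06 (SE), or 2.19-fold. Its level was 222 ± 0.815 FPKM with mitoxantrone and 107.9 ± 8.31 FPKM with DMSO.

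POLH (ENSG00000170734; chromosome 6, 43543887 to 43586701, plus strand) had 1026, 1011 and 1102 normalized counts with mitoxantrone, against 213.5, 213.6 and 187.9 with DMSO. The groups lay far apart, with the lowest mitoxantrone library more than 4 times the highest DMSO library. The means were 1046 ± 48.6 with mitoxantrone and 205 ± 14.8 with DMSO (SD, n = 3 each), a log2 fold change of 2.35 ± 0.09, or 5.11-fold. On the FPKM scale POLH had 14.4 ± 0.758 with mitoxantrone and 2.98 ± 0.203 with DMSO. These values rest on 2824 reads over the mitoxantrone libraries and 697 over the DMSO libraries, the fewest of the 3 genes.

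DDB2 (ENSG00000134574; chromosome 11, 47236493 to 47260767, plus strand) had 3467, 3170 and 3445 normalized counts with mitoxantrone, against 1670, 1685 and 1485 with DMSO. The mitoxantrone libraries were again all above the DMSO libraries, as for 57.5% of all listed genes. The means were 3361 ± 166 with mitoxantrone and 1613 ± 112 with DMSO (SD, n = 3 each), a log2 fold change of 1.06 ± 0.07, or 2.08-fold, and the levels were 91.5 ± 4.02 FPKM with mitoxantrone and 46.6 ± 2.98 FPKM with DMSO. DDB2 lay close to the limit of the table, whose smallest absolute log2 fold change is 1.00, and it was not past the threshold when glmTreat, from edgeR, asked for more than a 2-fold change. Of the 2677 listed genes that were higher, 145 had a smaller log2 fold change than DDB2 in the authors' deposited table, which gives DDB2 1.06, PCNA 1.13 and POLH 2.34.

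**Figure D1:**
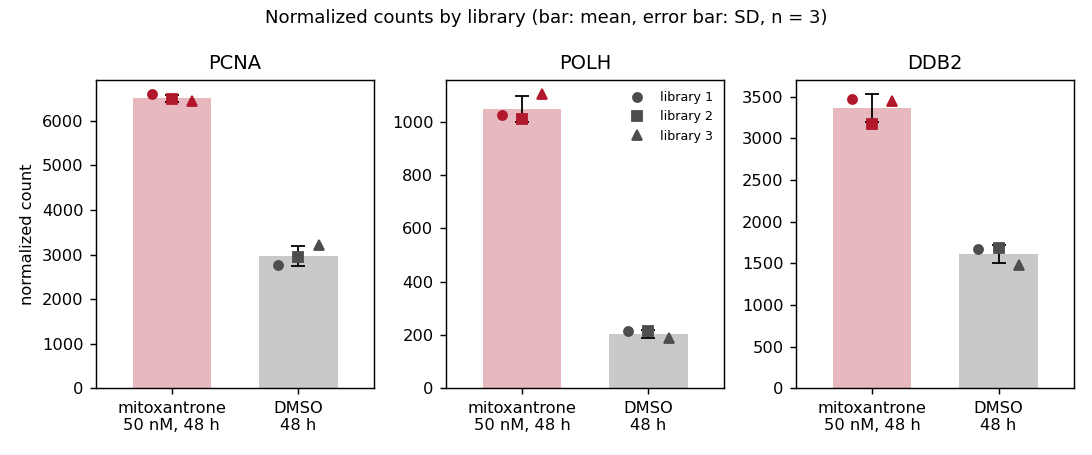
Normalized counts (y axis, from 0) of PCNA, POLH and DDB2 in the mitoxantrone libraries (left, red) and the DMSO libraries (right, grey). Bars are means, error bars SDs over 3 libraries, and symbols single libraries. In each panel all mitoxantrone libraries lie above all DMSO libraries, as for 57.5% of all listed genes. POLH is 5.11-fold, PCNA 2.19-fold and DDB2 2.08-fold higher.

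All 3 genes were called higher by edgeR's quasi-likelihood test, as were 58.9% of the listed genes, and all 3 had no overlap between the groups, as had 98.3% of the listed genes in either direction and 57.5% with the drug higher. Because the table was itself selected on these libraries, all of its 4546 genes passed that test in one direction or the other, and these shares are background only. Among the 2677 higher genes POLH ranked 924th by log2 fold change, PCNA 2422nd and DDB2 2579th. By FPKM among all listed genes PCNA was 34th with mitoxantrone and 70th with DMSO, DDB2 81st with mitoxantrone and 175th with DMSO, and POLH 477th with mitoxantrone and 1703rd with DMSO.

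POLH differed more between the groups than PCNA and DDB2, which were alike. The proportion of DDB2 to PCNA was similar in the groups, 0.412 ± 0.0195 FPKM of DDB2 per FPKM of PCNA with mitoxantrone and 0.435 ± 0.0587 with DMSO, a difference smaller than the SD among DMSO libraries. POLH had 0.0646 ± 0.00358 FPKM per FPKM of PCNA with mitoxantrone and 0.0279 ± 0.00388 with DMSO, 2.32 times as much with the drug. Likeness between genes was measured as the root mean square difference over the 6 libraries of log2 normalized counts centred on each gene's mean, against 2621 other listed genes with a mean of at least 50. By this measure DDB2 lay 0.13 from PCNA, DDB2 being the 336th closest to PCNA, and POLH lay 0.62 from PCNA and 0.65 from DDB2. The distances of POLH largely restate its larger log2 fold change and are no separate evidence of a different profile. Nearest genes likewise have log2 fold changes close to the member's own, such as MLEC at 1.11, KANK3 at 2.45 and P2RY2 at 1.06. The genes most like PCNA were MLEC, which encodes the endoplasmic reticulum lectin malectin (0.03), a gene known only by a clone name (0.03) and PDGFD, a platelet-derived growth factor gene (0.03). KANK3 (0.08) and the TNF-family ligand gene CD70 (0.08) were nearest to POLH. Nearest to DDB2 were the nucleotide receptor gene P2RY2 (0.04), ADSSL1, of adenylosuccinate synthesis (0.04), and SLC9A7, a sodium/proton exchanger gene (0.05).

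Around these genes, the other listed repair genes were mostly lower with mitoxantrone. Of the 92 rows annotated "DNA repair", 11 were called higher and 81 lower and the median was -1.79 on the log2 scale, where 41.1% of all listed genes were lower and their median was 1.20. Listed genes with a mean of 50 or more normalized counts, as 90 of the repair rows have, split into 1180 higher and 1442 lower with a median of -1.06. Without PCNA, POLH and DDB2 the remaining 89 rows split into 8 higher and 81 lower, with a median of -1.87. PCNA stood 2.92, POLH 4.14 and DDB2 2.85 above the median of the 92 rows on the log2 scale. These differences between genes do not depend on how the libraries are scaled. They are distances from listed rows only. The smallest absolute log2 fold change in the table is 1.00, so repair genes that changed less do not enter the median. Among the 92 rows, those that also carry a replication, cell cycle, division or mitosis term split into 7 higher and 45 lower (median -2.04), where all 462 listed genes with such a term split into 95 higher and 367 lower (median -1.69). This group of 52 holds PCNA and POLH. The 40 rows with no such term, which hold DDB2, split into 4 higher and 36 lower (median -1.49).

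POLH was the highest of the 92 rows by log2 fold change. The next were BTG2, an antiproliferative gene (1.96 ± 0.09), and RPS27L, a ribosomal-protein-like p53 target (1.81 ± 0.07). They were followed by the polymerase nu gene POLN (1.25 ± 0.32, from 90 reads with mitoxantrone and 48 with DMSO), the single-stranded DNA binding gene NABP1 (1.21 ± 0.09) and POLR2L, of a shared RNA polymerase subunit (1.20 ± 0.07). PCNA and DDB2 came 7th and 8th. Below them were PARP3, a poly(ADP-ribose) polymerase gene (1.03 ± 0.10), RRM2B, the p53-inducible ribonucleotide reductase subunit (1.02 ± 0.08), and the exonuclease gene TREX1 (1.01 ± 0.13). Immediately on the other side were the nuclease gene MUS81 (-1.03 ± 0.08) and INIP, of a single-stranded DNA binding complex (-1.04 ± 0.10). The gap between them and TREX1 comes from the table itself, whose smallest absolute log2 fold change is 1.00. At the low end were the helicase gene PIF1 (-6.15 ± 0.25), TOP2A (-5.33 ± 0.08), which encodes the topoisomerase that mitoxantrone poisons, EXO1 (-5.27 ± 0.15), CDK1 (-5.19 ± 0.14), FOXM1 (-4.67 ± 0.10), RAD51AP1 (-4.59 ± 0.18), BLM (-4.50 ± 0.15), the polymerase theta gene POLQ (-4.46 ± 0.15), FANCB (-4.19 ± 0.29) and BRCA2 (-4.12 ± 0.18).

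**Figure D2:**
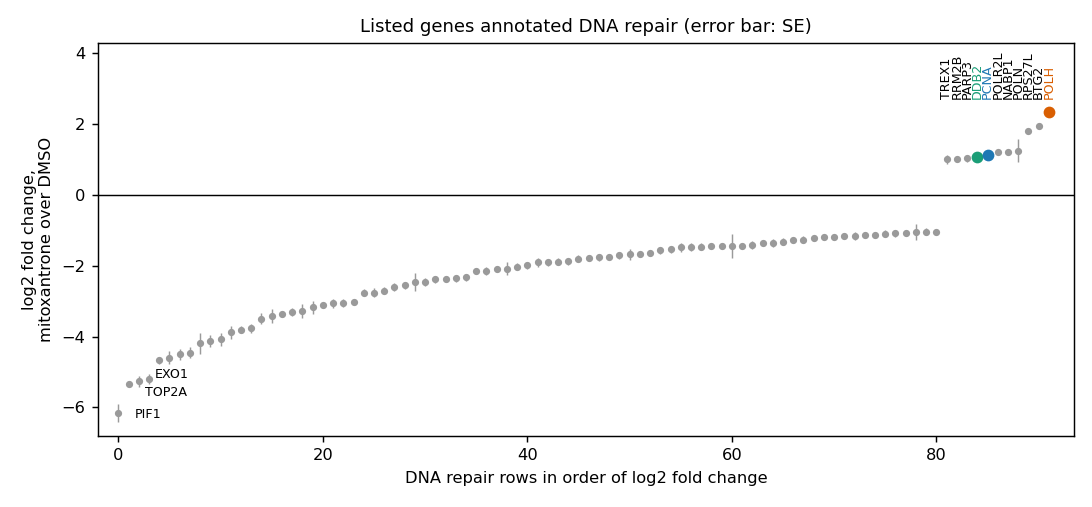
Log2 fold change, mitoxantrone over DMSO (y axis), of the 92 listed genes annotated "DNA repair", in order of that value (x axis), with SE bars. The 11 higher genes are named, with POLH (orange) at 2.35, PCNA (blue) at 1.13 and DDB2 (green) at 1.06; the other 81 lie below 0.

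By level, the same rows changed order around PCNA, POLH and DDB2. Over the 92 rows the summed FPKM was 1048 ± 11.7 with mitoxantrone and 1626 ± 8.66 with DMSO (SD, n = 3 each). PCNA alone made up 21.2% ± 0.224 of that sum with mitoxantrone and 6.63% ± 0.477 with DMSO. DDB2 made up 8.74% ± 0.432 with mitoxantrone and 2.87% ± 0.198 with DMSO, and POLH 1.37% ± 0.0662 with mitoxantrone and 0.183% ± 0.0134 with DMSO. Among these rows PCNA ranked 2nd by FPKM with mitoxantrone, after POLR2L, and 4th with DMSO. DDB2 ranked 3rd with mitoxantrone and 8th with DMSO, and POLH 11th with mitoxantrone and 83rd with DMSO. GADD45A, a stress gene known as a p53 target, ranked 5th at 55.9 FPKM with mitoxantrone and 1st at 189 FPKM with DMSO.

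The repair terms that the genes carry were split in the same way. "Pyrimidine dimer repair" held 2 listed genes, POLH and DDB2, both higher, which their choice by direction fixed in advance. The counts that follow also include genes picked for being higher, and 58.9% of all listed genes were higher. Of 18 rows annotated "nucleotide-excision repair", 15 were lower and PCNA, DDB2 and POLR2L were higher. PCNA was the only higher row of 11 under the gap-filling step of nucleotide excision repair, of 9 under base excision repair and of 5 under translesion synthesis, a term that the deposited annotation does not give to POLH. POLH was the only higher row of 9 under "DNA synthesis involved in DNA repair".

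Other p53 targets with roles in repair were found on both sides. Of a list of 14, which includes PCNA, POLH and DDB2, 9 were listed, 6 higher and 3 lower. The median was 1.06 on the log2 scale, which is DDB2's own value. The share higher was 66.7%, near the 58.9% of all listed genes, and it includes the 3 genes picked for their direction. Apart from PCNA, POLH and DDB2, SESN1, RPS27L and RRM2B were higher and GADD45A, POLK and FANCC lower. SESN1, a sestrin gene, was higher at 928, 998 and 1006 normalized counts with mitoxantrone, against 143, 134 and 146 with DMSO (2.79 ± 0.10). RPS27L had 5387, 6370 and 6251 with mitoxantrone, against 1692, 1715 and 1737 with DMSO. RRM2B had 2100, 2733 and 2843 with mitoxantrone, against 1286, 1235 and 1261 with DMSO. In each of these genes the groups did not overlap, as in 98.3% of all listed genes. GADD45A went the other way, at 2290, 2260 and 2350 with mitoxantrone against 8023, 7837 and 6133 with DMSO (-1.67 ± 0.07). The translesion polymerase gene POLK (-1.08 ± 0.10) and the Fanconi gene FANCC (-1.53 ± 0.10) were lower as well. XPC, which encodes the lesion sensor that acts after UV-DDB, was not listed, nor were SESN2, ERCC5, ASCC3 and REV3L. All 15 listed genes of 25 p53 targets outside repair were higher, at 1.04 to 5.98 on the log2 scale, where 58.9% of all listed genes were higher. POLH lay near the middle of that list, while PCNA and DDB2 lay below all of its listed members but BBC3 (1.04 ± 0.08).

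Among genes that load, modify or bind the clamp, PCNA was higher while nearly all its listed partners were lower. All 7 listed of 9 clamp loader and unloader genes were lower, with a median of -2.55. They were the replication factor C genes RFC2 (-1.80 ± 0.09), RFC3 (-2.60 ± 0.11), RFC4 (-1.90 ± 0.12) and RFC5 (-2.55 ± 0.10), the alternative loader genes CHTF18 (-1.74 ± 0.12) and DSCC1 (-3.47 ± 0.17), and the unloader gene ATAD5 (-2.95 ± 0.16). RFC3 had 126, 129 and 156 normalized counts with mitoxantrone, against 829, 794 and 873 with DMSO, with no overlap, as for 98.3% of listed genes. PCNA had 14.2 ± 0.834 times the summed FPKM of these 7 genes with mitoxantrone and 1.38 ± 0.0349 times with DMSO. The libraries were at 13.8, 15.2 and 13.7 in mitoxantrone 1 to 3, against 1.35, 1.37 and 1.42 in DMSO 1 to 3. This separation is a description, since PCNA was picked for its direction and only listed loader genes were summed.

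The MCM2 to MCM7 genes of the replicative helicase, which act on the same forks as PCNA, were all lower, and so were all 11 listed helicase genes (median -2.23). PCNA had 5.86, 6.64 and 6.17 times the summed FPKM of MCM2 to MCM7 in mitoxantrone 1 to 3, against 0.681, 0.648 and 0.654 times in DMSO 1 to 3. The groups were separated by a factor of 9.42 in their means, again a description, as PCNA was picked for its direction. Over FEN1, the flap endonuclease gene that works on the clamp, PCNA had a ratio of 25.4 ± 1.76 with mitoxantrone and 4.24 ± 0.219 with DMSO.

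Of 34 genes of PCNA-binding proteins 22 were listed, and CDKN1A and POLH were the ones that were higher against 20 lower (median -1.61). CDKN1A encodes p21, which binds PCNA as well as cyclin-dependent kinases. It had 35972, 34079 and 33746 normalized counts with mitoxantrone, against 4789, 4439 and 3704 with DMSO. Its groups did not overlap, as those of 98.3% of listed genes did not. PCNA had 0.382 ± 0.00849 FPKM per FPKM of CDKN1A with mitoxantrone and 1.43 ± 0.2998 with DMSO, so CDKN1A exceeded PCNA with mitoxantrone and PCNA exceeded CDKN1A with DMSO. The largest falls in this list were in the cohesion gene ESCO2 (-5.41 ± 0.20), the origin factor MCM10 (-5.36 ± 0.17), EXO1, DTL (-4.51 ± 0.16) and CDT1 (-4.05 ± 0.14). DTL encodes the receptor of the CUL4 ligase that degrades its targets on chromatin-bound PCNA, among them the licensing factor CDT1. The DNA ligase gene LIG1 was not listed.

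**Figure D3:**
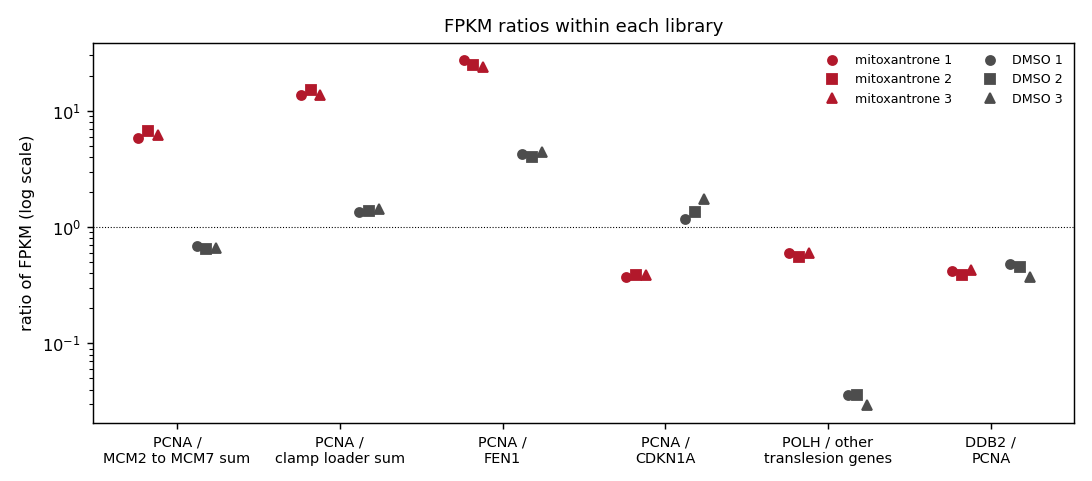
Ratio of FPKM within each library (y axis, log scale) for PCNA over its loaders, helicase, FEN1 and CDKN1A, POLH over other translesion genes, and DDB2 over PCNA, in mitoxantrone (red, left) and DMSO (grey, right) libraries. PCNA over MCM2 to MCM7 lies between 5.86 and 6.64 with mitoxantrone and between 0.648 and 0.681 with DMSO, while the DDB2 over PCNA ratios overlap.

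Among the listed genes of translesion synthesis, POLH was close to alone in being higher. Of 24 genes of translesion synthesis and PCNA ubiquitination 11 were listed, and POLH and the sparse POLN were higher against 9 lower (median -1.57). The lower genes were RAD18 (-1.90 ± 0.10), the ubiquitin ligase gene that marks PCNA for polymerase eta, USP1 (-2.76 ± 0.10), the protease gene that removes the mark, HLTF (-1.07 ± 0.08), RFWD3 (-1.19 ± 0.07), PRIMPOL (-1.57 ± 0.15), POLD3 (-2.14 ± 0.10), POLK, POLQ and KIAA0101 (-3.38 ± 0.14), which encodes the PCNA-binding protein PCLAF. RAD18 had 190, 185 and 224 normalized counts with mitoxantrone, against 761, 704 and 775 with DMSO. USP1 had 149, 193 and 212 with mitoxantrone, against 1255, 1177 and 1354 with DMSO. Neither gene's groups overlapped, which holds for 98.3% of listed genes. POLH had 0.582 ± 0.0232 times the summed FPKM of the other 10 listed genes with mitoxantrone and 0.0338 ± 0.00400 times with DMSO, a 17.2-fold difference between the means. That difference is a description too, since POLH was picked for its direction and only listed genes were summed. The polymerase genes POLI and REV1 were not listed, so they and the other unlisted genes of this list cannot be placed.

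Of a list of 30 core nucleotide excision repair genes, which leaves out PCNA and POLR2L, 3 were listed, DDB2 higher and 2 lower. GTF2H3, of the TFIIH core, had 486, 597 and 583 normalized counts with mitoxantrone, against 1241, 1203 and 1254 with DMSO (-1.15 ± 0.08). CCNH, cyclin H of the TFIIH kinase, had 423, 470 and 472 with mitoxantrone, against 1067, 987 and 941 with DMSO (-1.13 ± 0.09). In both the groups did not overlap, as in 98.3% of listed genes. The genes of its direct partners, DDB1, CUL4A, CUL4B and RBX1, were not listed, and neither were the XPA, ERCC and RPA genes of the list, so most of this pathway cannot be placed. Listed genes of the other repair lists, drawn up from general knowledge, were all lower, with 3 of 22 for base excision repair (median -1.45), 2 of 8 for mismatch repair (MSH6 at -1.28 ± 0.07 and EXO1) and 27 of 46 for double-strand break and crosslink repair (median -2.76). Under the deposited terms some genes outside those lists were higher: PCNA under base excision repair, PCNA and TREX1 under mismatch repair, PARP9 under double-strand break repair, and NABP1 and SWSAP1 under repair by homologous recombination.

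**Figure D4:**
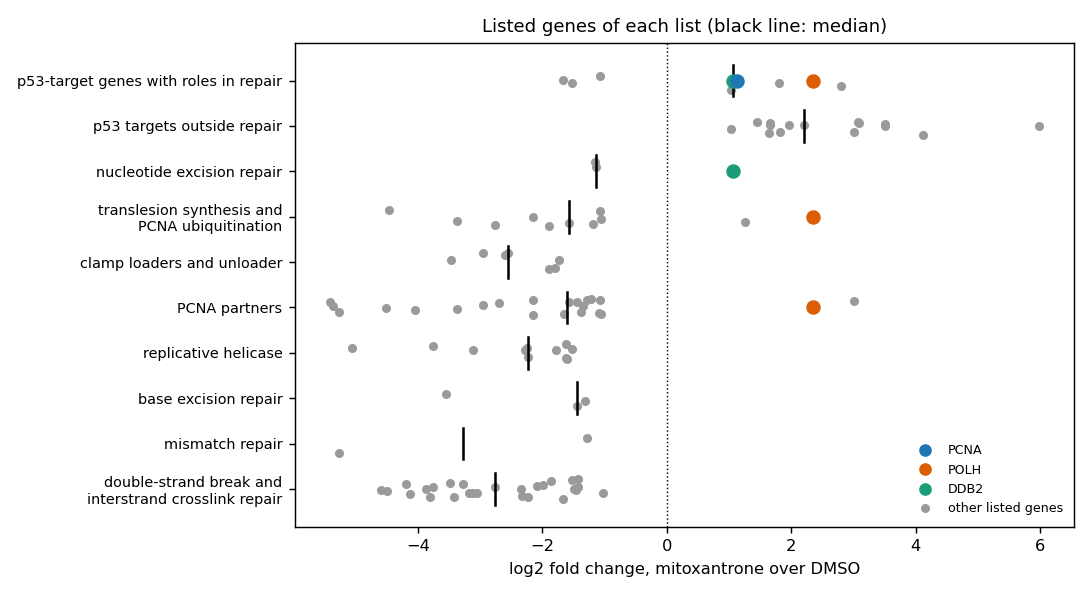
Log2 fold change, mitoxantrone over DMSO (x axis), of the listed genes of 10 gene lists (rows), with the median as a black line; vertical scatter within a row has no meaning. PCNA (blue), POLH (orange) and DDB2 (green) lie right of 0, with PCNA and DDB2 nearly on each other in the top row, while the medians of the 8 replication and repair lists below the p53 target rows lie left of 0.

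Reads of near-identical or overlapping genes could touch these values. GENCODE 29 names 3 PCNA pseudogenes and 1 pseudogene of POLH or DDB2, none of them listed. POLH overlaps GTPBP2 on the opposite strand by 13649 bases in the deposited coordinates, and GTPBP2 was lower (-1.49 ± 0.08). In GENCODE 29 they share 4 exonic bases, of 3540 exonic bases of POLH. An antisense gene overlaps each of POLH and DDB2 in that annotation, and neither antisense gene is listed. The labels do not say whether counting used strand, so reads from these antisense genes cannot be told apart from those of POLH and DDB2.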

How the data were processed

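Total RNA of 3 mitoxantrone and 3 DMSO libraries was sequenced as 150-base paired reads after 13 PCR cycles, with neither strand nor molecular identifiers mentioned, per the labels' protocols. Per the submitters' processing notes, the tools were cutadapt 1.9.1, HISAT2 2.0.1, HTSeq 0.6.1, Cufflinks 2.2.1, SAMtools 0.1.19 and DESeq2; the sources used here name no build or annotation. For every gene and library the authors deposited the raw count and the FPKM. Further deposited columns, named in the file header, are the mean normalized count (a signal over all libraries), the log2 fold change with an error, a score (the first divided by the second), a p-value and its adjusted form. The table holds 4546 genes with an adjusted p of at most 0.0497.

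Size factors (0.827 to 0.980 with mitoxantrone, 1.08 to 1.17 with DMSO) were recovered from the counts and the deposited means. Raw counts were tested with edgeR 4.0.16 under R 4.3.3 (quasi-likelihood F-test, no covariate, no filter), with Benjamini-Hochberg adjustment over 4546 genes at 0.05, after the code was tested on simulated data. Whether libraries are separate cultures is not said in the labels: p-values then reflect the spread of these samples alone, possibly a technical one. Changes are relative to other transcripts, with no spike-in. DESeq2 1.42.0 and limma 3.58.1 served as alternatives. Repair rows carry the exact biological process term "DNA repair". Gene lists came from general knowledge. Members, lists and tests were chosen with earlier results of these data known. Named genes were the 3 members, every higher repair row, the 10 repair rows with the largest falls and a mean of at least 50 normalized counts, listed members of the first 4 lists, up to 6 of the largest changes in each other list, the 3 genes most like each member, and neighbours in fold change; a few genes that these rules or lists hold are not reported here. Others (GADD45A by level, FEN1, MUS81, INIP, KRT8, BBC3, PARP9, SWSAP1, GTPBP2) were chosen after their values were seen.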

Additional observations from a re-analysis of the deposited data

How the results depend on the processing

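PCNA, POLH and DDB2 stayed higher under every alternative run. When more than a 2-fold change was asked for (glmTreat), DDB2, at 1.06, was not called, and repair rows called higher numbered 6. The rows with no replication, cell cycle, division or mitosis term numbered 4 higher and 36 lower, since fewer rows are counted. The median of all genes moved by -0.26 with TMM factors and -0.08 with library totals. It moved by -0.27 on log2(FPKM + 1) and -0.10 on log2(FPKM + 0.1), which compress low genes. With TMM factors PCNA was at 0.87, POLH at 2.09 and DDB2 at 0.80. Those factors were computed from the 4546 listed genes alone, all selected as changed and 58.9% of them higher. The repair median was -2.05 with TMM factors, -1.87 with library totals, -1.43 with log2(FPKM + 1) and -1.86 with log2(FPKM + 0.1). It was -1.70 over any term holding "repair", -1.49 without cycle terms and -1.83 with a mean of at least 50. For the same 3 row sets, PCNA minus the median was 2.83, 2.62 and 2.96, POLH 4.05, 3.84 and 4.18, and DDB2 2.76, 2.55 and 2.89. On log2(FPKM + 1) these differences were 2.47 for PCNA, 3.38 for POLH and 2.39 for DDB2, and POLH had 4.09 on log2(FPKM + 0.1).

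With 1 library left out, the repair median ran from -1.84 to -1.76, PCNA minus it from 2.88 to 3.0, POLH from 4.11 to 4.22 and DDB2 from 2.81 to 2.92. Single values ran from 1.08 to 1.19 for PCNA, 2.29 to 2.38 for POLH and 1.00 to 1.10 for DDB2. Deviations from the group means were nearly uncorrelated between same-numbered libraries (-0.07, -0.08 and 0.03). These values cannot show whether the libraries were run as pairs. The replicate block gave 2677 higher and 1869 lower genes, as without it, with PCNA at 1.13. Of 1695 values of 113 named genes, 1682 kept their direction and call, 13 lost the call, all against a 2-fold change, and 0 reversed. Of 390 list counts 2 moved, both against a 2-fold change: excision repair members higher became 0 and translesion members higher 1. POLN, with 90 reads with mitoxantrone and 48 with DMSO, is the gene named here with the least depth among those that were higher.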

Other observations

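Among the DMSO libraries PCNA was ordered differently from POLH and DDB2. DMSO 3 had the most PCNA (117 FPKM, against 100.8 and 105.7 in DMSO 1 and 2) and the least POLH (2.75, against 3.12 and 3.08) and DDB2 (43.2, against 48.5 and 48.2). The summed FPKM of MCM2 to MCM7 was also highest there, at 179, with 148 in DMSO 1 and 163 in DMSO 2, while CDKN1A was lowest, at 66.6 against 85.9 and 78.6. Of the 11 helicase genes 8 were highest in DMSO 3, as were 18 of the 27 listed double-strand break and crosslink repair genes, and 10 of the 15 p53 targets outside repair were lowest there. The 9 listed p53 targets with roles in repair showed no such order, with 3 highest and 3 lowest in DMSO 3, and of the 22 listed PCNA partners 12 were highest and 6 lowest there. Over all 2622 listed genes with a mean of at least 50, 35.7% were highest and 34.3% lowest in DMSO 3. The pattern was noticed in these values and rests on 3 libraries, so it has no test.

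The promoter windows of the 3 genes differed in composition. POLH's was 74.7% G or C, those of PCNA 68.0% and 65.7%, and those of DDB2 58.3% and 65.3%, where the median of all windows was 58.7%. In the 250 bases before the start, PCNA held 3 and 2 matches to the GC box GGGCGG on either strand, POLH 2 and DDB2 0 and 3; 42.6% of windows hold at least 1.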
